A study of Mus musculus with 12 samples.

Results

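Gene expression was compared between wild-type mouse eyelids taken at E16.5 and at E15.5, which are days of embryonic development. The differences between the stages rest on 4 of the 12 arrays of the study, 2 for each stage, chosen by their titles alone. The spread behind each error and p-value was estimated from all 12 arrays. The 4 compared arrays all carried RNA of C57BL6/J embryos labelled wild-type, with no further allele or treatment named. Of the other arrays, the 2 of wild-type eyelid at E14.5 are shown for their levels, and the 4 of Tabby eyelid at E15.5 and E16.5 serve as a second set of arrays across the same days. Tabby is a mutation of Eda, the gene of the signalling ligand ectodysplasin, which hair, sweat glands and the Meibomian glands of the eyelid rim need to form. The Tabby embryos were also labelled C57BL6/J, and the study was designed to find genes that depend on Eda while Meibomian glands develop. The labels call the arrays biological replicates and do not say whether they came from separate embryos, litters or pools, so p-values measure the spread between these samples, part of which may be technical.

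In the mouse embryo the eyelids grow across the eye as epithelial sheets with mesenchyme between them, meet and fuse, and open again only after birth. Over the same days the embryonic epidermis stratifies and begins to form its barrier of cornified cells, for which keratinocytes switch on genes of terminal differentiation, and hair follicles and the eyelid glands start as buds of the epithelium.

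Each array was a 2-colour hybridisation in which eyelid RNA carried Cy3 and a common reference carried Cy5. The value of a probe is the log2 ratio of eyelid over reference, so 0 means equal signal and 1 means 2-fold more eyelid signal. Per the labels, that reference combined the RNA of 11 mouse cell lines with RNA of embryonic stem cells, 2 parts to 1. Of 42006 probes, 30740 (73.2%) entered the test, which were those well above background in the eyelid channel on both arrays of at least 1 of the 2 stages. On the 4 arrays, eyelid signal was well above background for 71.1% to 78.6% of probes, and no eyelid spot was saturated. Probes are named by their identifiers, because the files used here pair them with no gene, so eyelid marker genes could not be read either, apart from a few probes placed by sequence at the end. The 2 stages lay on different slides, each with the arrays of 1 stage, so the slide cannot be told apart from the stage in any value below. Precision is limited throughout by having 2 arrays per stage.

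The first E15.5 array stood apart from the second. Across the tested probes the 2 E15.5 arrays correlated at r = 0.9784, and 354 probes differed over 2-fold between them. The other 5 groups of the study gave r = 0.9877 to 0.9945, with 20 to 109 such probes. The standard deviation of the difference between replicates was 0.279 on the log2 scale at E15.5 and 0.189 at E16.5. Replicate 1 of E15.5 correlated with the E16.5 arrays at r = 0.936 and 0.946, and replicate 2 at 0.957 and 0.961. With the E14.5 arrays replicate 1 gave 0.94 and 0.936 and replicate 2 gave 0.939 and 0.936. These correlations are across probes, which are not independent replicates. Results below are therefore given with all arrays and without each E15.5 array.

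A few probe sequences are shown first, since they are the only identity that the files give. Each probe has 60 bases, and 30 of them are printed 5′ to 3′. The first block holds the probe with the largest rise, the named riser with the smallest error, and the largest rise from background in the eyelid channel. The last lines are the 2 probes with the largest falls. It has no capitals, as no part of these sequences is compared.
Z00040994-1, bases 1 to 30: ctgtggctatcttagatcgggtaatagttg
Z00024515-1, bases 1 to 30: tctcctgctgctctctgtgtcctgggctca
Z00025923-1, bases 1 to 30: agatattgaaaaattagctttgaaaaatct
Z00047077-1, bases 1 to 30: tacccatggacccatagattttttgacagc
Z00040042-1, bases 1 to 30: tttctactcattttgccaaggaattcaccc

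The second block shows 3 of the steepest risers whose sequences resemble each other, aligned over 30 bases. Capitals mark the 21 bases that are identical in all 3. The first and second lines are the same stretch read by overlapping probes, and the third is a different sequence.
Z00041156-1, bases 21 to 50: TTgTcCTcatGAaAcGACAATGCCcaTTTG
Z00059773-1, bases 1 to 30: TTgTcCTcatGAaAcGACAATGCCcaTTTG
Z00025655-1, bases 21 to 50: TTcTaCTtcaGAgAtGACAATGCCtcTTTG

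The third block shows 3 other risers that hold one run of 28 bases in common, in capitals.
Z00026084-1, bases 1 to 30: TCAAGAAAAGCCCAGCTAGTCTTGTTTTat
Z00060172-1, bases 25 to 54: TCAAGAAAAGCCCAGCTAGTCTTGTTTTgt
Z00026043-1, bases 1 to 30: TCAAGAAAAGCCCAGCTAGTCTTGTTTTgt

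Between E15.5 and E16.5 the large changes of the wild-type eyelid were mostly rises. By limma with Benjamini-Hochberg adjustment, 4616 probes (15% of those tested) passed an adjusted p of 0.05, of which 2919 (9.5%) were higher at E16.5 and 1697 (5.52%) lower. Among them 592 probes (1.93%) were at least 2-fold higher and 5 (0.0163%) at least 2-fold lower. At 4-fold the counts were 121 higher and 1 lower, at 8-fold 46 and 1, and at 16-fold 17 and 0. A rise of 64-fold or more was seen in 2 probes. The median difference was 0.533 for probes called higher and -0.285 for those called lower, against -0.00977 over all tested probes. Without a filter on size, both E16.5 arrays lay above both E15.5 arrays for 8152 probes (26.5%) and below both for 8547 (27.8%). These calls take their error from all 12 arrays. With only the 4 compared arrays in the fit, 305 probes were called, of which 219 differed at least 2-fold.

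The balance of small changes depended on how the arrays were scaled, whereas the excess of large rises was present in every scaling tried. Higher calls made up 63.2% of all calls, but 42.8% (2457 higher, 3282 lower) with the ratio of the scanner software and 41.2% (2771 higher, 3958 lower) with the eyelid channel alone. With median centring in place of loess they made up 96.7% (789 higher, 27 lower), and 42.8% (2453 higher, 3276 lower) with the values that the authors deposited. At 2-fold or more, the rises numbered between 429 and 653 over the 6 other scalings and the falls between 4 and 92. Which probes passed was less stable: 409 of the 592 (69.1%) were also called and 2-fold higher when the processed signals of the scanner software were normalised by loess, where they made up 63.5% of such calls.

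Agreement with the processed signals differed with the detection of the reference. The reference channel was well above background on all 4 arrays for 96.1% of tested probes and for 503 of the 592 risers (85%). Of those 503, 376 (74.8%) were also called and 2-fold higher with the processed signals, against 33 (37.1%) of the 89 others. With the processed signals 14 of the 592 had a fall in place of a rise, of which 2 had a reference well above background on all 4 arrays.

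Of the probes measured above background on all 4 arrays, Z00040994-1 rose most. Its ratio was -0.22 and -0.18 on the 2 E15.5 arrays and 7.95 and 7.44 on the 2 E16.5 arrays, after -0.51 and -0.58 at E14.5. Eyelid signal was thus slightly below the reference on the earlier days, close to equal between replicates, and far above it at E16.5. The difference was 7.89 ± 0.238 (SE, n = 2 arrays per stage), a 238-fold change, with a limma adjusted p of 5.66e-07. It lay between 7.14 and 8.89 over the 16 alternatives and was called in all of them. Another probe, Z00040631-1, went from 0.05 and 0.51 to 7.05 and 6.97, a difference of 6.73 with an adjusted p of 1.39e-06. It falls outside the rule for named probes, since 1 of its E15.5 arrays was not well above background, and is given because it is the other rise above 64-fold.

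Of the other 7 named risers, 2 stood at or near the reference level until E15.5 on both arrays. Z00022552-1 read 0.01 and 0.20 at E15.5, then 5.15 and 4.95 at E16.5, a difference of 4.95 ± 0.248 with a limma adjusted p of 1.16e-05. Z00024515-1 read 0.19 and 0.30 and then 4.60 and 4.69. Its difference of 4.40 had the smallest error of the named risers, ± 0.0665, and an adjusted p of 1.65e-08. On each probe the E16.5 arrays lay far above all earlier wild-type arrays. The reference channel rose as well between the stages, by 1.91 for Z00022552-1 and 2.24 for Z00024515-1, against 6.86 and 6.64 in the eyelid channel.

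In 2 other named risers the E15.5 arrays differed over 2-fold. Z00054289-1 read 0.36 and 1.66 at E15.5 against 5.30 and 5.46 at E16.5, and Z00056078-1 read 0.55 and 1.71 against 5.70 and 5.50. In both, replicate 1 was the closer to the E14.5 values (0.09 and 0.13 for the former, -0.03 and 0.02 for the latter) and replicate 2 the closer to E16.5. The differences were 4.37 ± 0.469 and 4.47 ± 0.373, with limma adjusted p of 0.000848 and 0.000253. For both probes the reference was well above background on 2 of the 4 arrays. With processed signals the differences were 1.18 and 1.14, and neither passed (limma adjusted p 0.171 and 0.134). The E15.5 readings were then 3.68 and 5.29 for Z00054289-1. For Z00056078-1 they were 5.95 and 5.31, with replicate 1 the higher, so its order of replicates depended on the processing.

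The last 3 named risers started clearly below the reference. Z00070340-1 read -1.47 and -1.57 at E15.5, then 3.21 and 3.03 at E16.5, a difference of 4.64 ± 0.218 with a limma adjusted p of 8.24e-06. Z00059773-1 read -0.93 and -1.83 and then 3.97 and 3.27, and Z00041156-1 read -1.13 and -1.92 and then 3.56 and 3.10. For these overlapping probes it was E15.5 replicate 1 that was higher, the reverse of the pattern in the ratios first printed for Z00054289-1 and Z00056078-1. Their differences were 5.00 ± 0.397 and 4.85 ± 0.338, with limma adjusted p of 0.000187 and 9.54e-05.

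**Figure D1:**
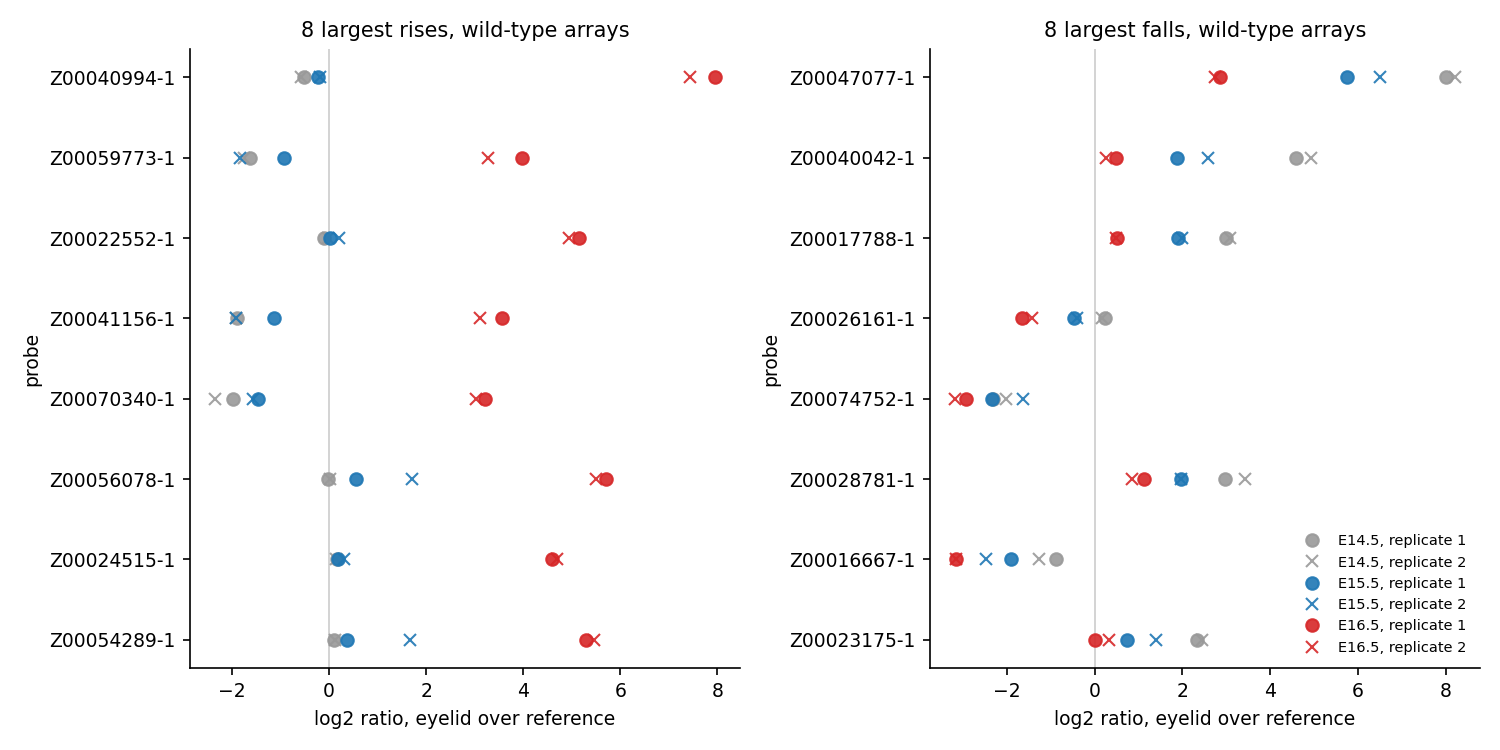
Log2 ratio of eyelid over reference on each wild-type array for the 8 named risers (left) and the 8 named fallers (right), with the stage in colour and the replicate as circle or cross. The E16.5 points of Z00040994-1 lie at 7.95 and 7.44, beyond all its earlier points, and the E15.5 points of Z00056078-1 and Z00054289-1 lie over 1 unit apart.

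Some of the steepest risers had sequences that resemble each other. Likeness was searched among the 46 probes at least 8-fold higher, so that these probes rose follows from that choice. Of the 46, 6 form 1 group, the 3 of the second block above included, in which each member shares 70.9% to 80% of aligned bases with at least 1 other, apart from the overlapping pair. No other tested probe reached 70% identity with any of the 6 over 40 or more aligned bases, and the closest had 64.3%. The differences of the 6 were 5.00, 4.85, 3.89, 3.58, 3.50 and 3.37. The last pair of these values, of Z00055894-1 and Z00031819-1, came from probes that were well above background on neither E15.5 array, and those of Z00025655-1 and Z00038555-1 from probes that were so on 3 of the 4 arrays, so the E15.5 level of these is in part a bound. The 6 read between -1.92 and 0.24 at E15.5 and between 2.41 and 4.00 at E16.5. In Tabby the same 6 rose by 1.17 to 3.49. Probes of like sequence can bind each other's transcripts, so the 6 values are not 6 independent measurements.

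Shared sequence was found elsewhere among the risers. Of the 592 probes, 52 shared a run of at least 18 identical bases with another of them, in 24 groups, so that 564 would remain with each group counted once. The 3 probes of the third block rose by 4.02, 3.76 and 3.34. In the 31 pairs with such a run, chosen for having both members among the 592, the rises differed by a median of 0.15 and by 1.46 at most. Over all 730 pairs of overlapping or identical tested probes the median gap was 0.041. In a further 11 pairs only 1 member was among the 592, and in 10 of these the other was called higher as well. The exception was an overlapping pair in which Z00063025-1 rose by 1.88, while Z00033007-1 had an uncalled difference of 0.207. The largest set, of 4 probes, held 3 that read between 7.04 and 8.06 at E15.5 and between 8.36 and 9.28 at E16.5, with rises of 1.05 to 1.47. The fourth, Z00049259-1, read 1.1 and 1.79 and then 3.39 and 3.60.

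The hexamers AATAAA and ATTAAA, the common signals for adding the poly(A) tail, were searched on the probe strand only. At least 1 was present in 10.5% of all tested probes, in 13.5% of the 592 and in 12 of the 46 probes at least 8-fold higher (26.1%). Median GC content was 45% over all tested probes and over the 592, 42.5% in the 46 and 41.7% in the probes called lower. The 46 include overlapping probes, which share bases. These shares are descriptions of the probes.

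Many risers stood above their E14.5 level by E15.5 already. The median ratio of the 592 probes was -0.0304 at E14.5, 0.639 at E15.5 and 2.34 at E16.5. At E15.5, 207 of them already stood at least 2-fold above E14.5 and 129 lay within 0.25 of it, while 37 lay below it and none 2-fold below. The E15.5 arrays enter both steps, so a low value there makes the later step larger and the earlier one smaller. In 125 probes the ratio crossed from below the reference to above it. By array, the median was -0.05 and -0.05 at E14.5, 0.42 and 0.84 at E15.5, rising to 2.41 and 2.29 at E16.5. The 2 arrays of E14.5 were level with each other and those of E16.5 nearly so, while E15.5 replicate 1 sat closer to E14.5 than replicate 2 did.

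**Figure D2:**
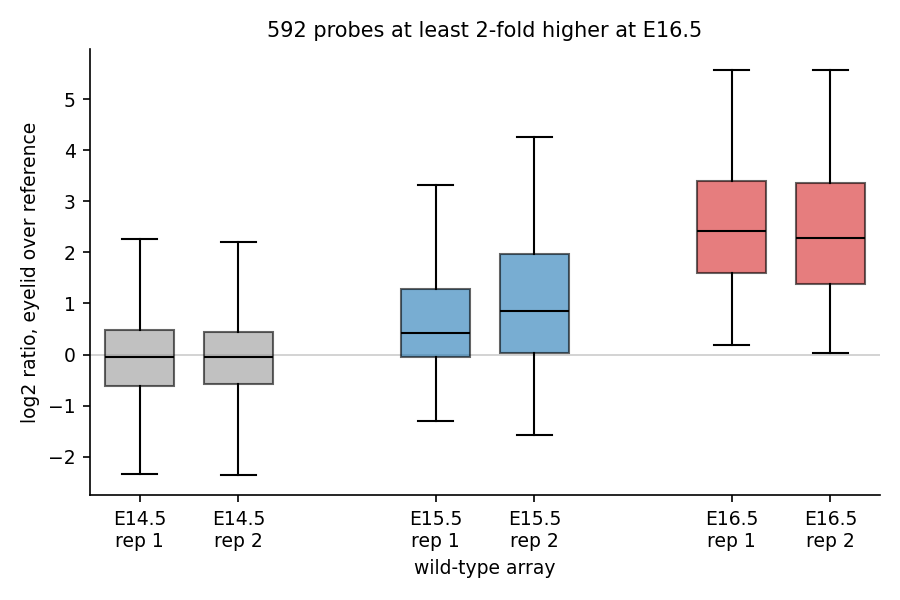
Log2 ratio of eyelid over reference of the 592 probes called and at least 2-fold higher at E16.5, on each wild-type array (line, median; box, quartiles; whiskers, 5th to 95th percentile). The medians of the 2 E15.5 arrays are 0.42 and 0.84 and those of the E16.5 arrays 2.41 and 2.29, and because the probes were chosen on these arrays the rise itself is no test.

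The rises of these probes depended in size on the E15.5 array they were measured against. Replicate 1 lay below replicate 2 in 500 of the 592 (84.5%), against 55.2% of all tested probes. Measured from replicate 1 the median rise was 1.59, and from replicate 2 it was 1.21. The E16.5 mean was at least 2-fold above replicate 1 in 574 probes and above replicate 2 in 411, and it was above both in all 592. In 325 probes each E16.5 array was at least 2-fold above each E15.5 array. With replicate 1 left out, 413 probes were called and at least 2-fold higher, of which 396 were among the 592 (66.9% of these and 95.9% of the 413). With replicate 2 left out there were 860, of which 573 were among the 592 (96.8% of these and 66.6% of the 860). The numbers of all calls were 1661 higher and 782 lower without replicate 1, and 3904 higher and 2517 lower without replicate 2. Leaving out an E16.5 array gave 1527 higher and 601 lower without replicate 1 and 1762 higher and 639 lower without replicate 2. In each of these fits the lone array of a stage is assumed to vary like the other groups.

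**Figure D3:**
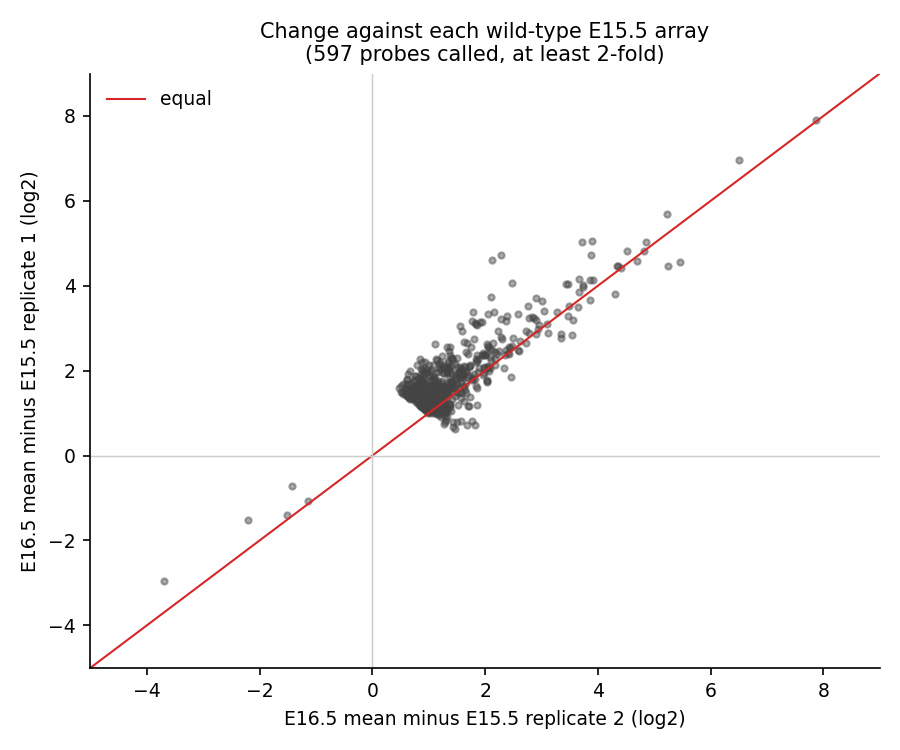
For the 597 probes called and at least 2-fold different, the E16.5 mean minus E15.5 replicate 2 (x axis) and minus E15.5 replicate 1 (y axis), both on the log2 scale, with the line of equal change. In 500 probes the change was larger in size against replicate 1 and in 97 against replicate 2, and all points keep their direction against both arrays.

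**Figure D4:**
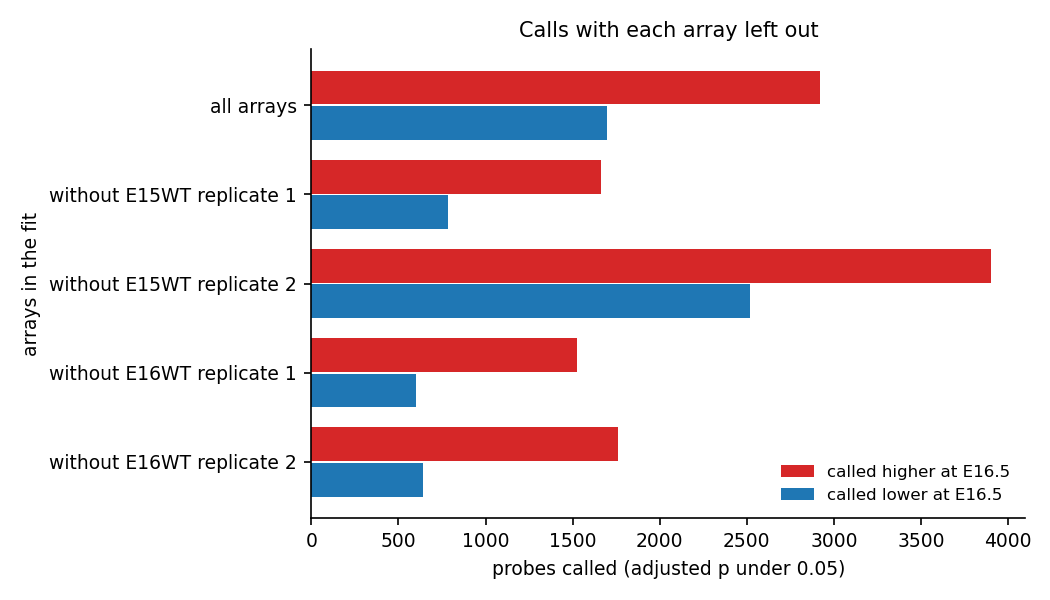
Number of probes called higher and lower at E16.5 at an adjusted p under 0.05 with all arrays and with each wild-type array of the 2 stages left out. The counts are 2919 and 1697 with all arrays, and range from 1527 and 601 without E16.5 replicate 1 to 3904 and 2517 without E15.5 replicate 2.

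A set of probes came up from background. Among called probes, 56 were well above background on both E16.5 arrays and on neither E15.5 array, while 1 did the reverse. For such probes the earlier level is only a bound, so the change is given as a lower bound in the eyelid channel. The bound takes the mean of the bright stage against, for each dim array, the higher of the probe's own signal and the lowest signal counted as well above background. It was computed with the eyelid channel scaled together with the reference and, as an alternative added after seeing the data, scaled alone, and the lower of both is printed. That bound was 2-fold or more for 17 of the 56 and 10-fold or more for 6. Z00025923-1 was at least 66.5-fold higher, Z00064871-1 at least 46.2-fold, Z00055894-1 at least 33.1-fold and Z00042935-1 at least 14.6-fold, and the bound of Z00054288-1 lay between the last pair. The ratios of Z00025923-1, Z00064871-1, Z00055894-1, Z00054288-1 and Z00042935-1 rose by 4.42, 4.82, 3.50, 4.41 and 2.88 on the log2 scale. As folds these were 21.3, 28.2, 11.3, 21.2 and 7.37, which is below the bound for all but Z00054288-1. In the same order the reference channel changed by 2.07, 0.99, 1.86, -0.15 and 1.24 on the log2 scale. The bounds do not take out that change, so they limit the eyelid signal and not the ratio. Eyelid RNA carried Cy3 at both stages and no dyes were swapped, so effects of the dye on these bounds were not tested.

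The ratios of these 5 probes were flat before E16.5. Z00025923-1 read 0.00 and 0.01 at E15.5, then 4.48 and 4.36 at E16.5, with a limma adjusted p of 3.53e-06. Z00064871-1 read -0.04 and -0.04 and then 5.14 and 4.42 (limma adjusted p 0.000101). Z00055894-1, one of the 6 probes of like sequence, read -0.02 and 0.02 and then 3.65 and 3.35 (limma adjusted p 2.03e-05). No E15.5 array of the 5 was more than 0.1 from equality with the reference, and no E16.5 array was below 2.57. A dim probe reads near 0 by construction, since an offset of 50 was added to both channels. The only probe well above background at E15.5 alone, Z00064590-1, went from -0.21 and -0.53 to -0.67 and -0.78 (limma adjusted p 0.0419). It no longer passed without E15.5 replicate 1 or without either E16.5 array.

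The rises were mostly in the eyelid channel. For the 592 probes the eyelid channel rose by a median of 1.47 on the log2 scale and the reference channel by 0.0402. For the 46 probes at least 8-fold higher the medians were 4.57 and 0.742, so the reference signal moved up with the steepest risers although the reference RNA was common to all arrays. Before normalisation the same medians were 3.76 and 0.747. The rise in the reference channel makes the ratios of those probes smaller, and its part in them was not tested.

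Few falls were large in the main setting with all arrays in the fit, where 5 of at least 2-fold passed. That number depended on the scaling, at 4 with median centring and 23 to 92 with the other scalings tried. More falls of 2-fold passed whenever a wild-type array of either stage was left out, most of all an E15.5 array. Z00047077-1 fell most, from 5.76 and 6.50 at E15.5 to 2.86 and 2.75 at E16.5, after 8.02 and 8.21 at E14.5. It stayed above the reference at each stage, and the arrays of each stage did not overlap with those of the next. The difference was -3.33 ± 0.409 (SE, n = 2 arrays per stage), a 10.04-fold change, with a limma adjusted p of 0.00168, and it was called in all 16 alternatives. Z00040042-1 was likewise lower at each later stage. It read 4.60 and 4.94 at E14.5, 1.87 and 2.58 at E15.5, then 0.48 and 0.25 at E16.5, a difference of -1.86 ± 0.355 with a limma adjusted p of 0.0112. Without E16.5 replicate 2 it no longer passed.

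Of the other 3 falls of at least 2-fold, 2 were close between replicates. Z00017788-1 read 2.99 and 3.09 at E14.5, 1.90 and 2.00 at E15.5, then 0.51 and 0.48 at E16.5. Its last step was -1.46 ± 0.177, with a limma adjusted p of 0.00162. Z00026161-1 went from -0.47 and -0.41 to -1.66 and -1.43, a step of -1.1 ± 0.0997 with a limma adjusted p of 0.000383. Both were called in all 16 alternatives. Z00074752-1 went from -2.33 and -1.63 to -2.93 and -3.18, a step of -1.08 ± 0.221 (limma adjusted p 0.0146). It kept its call in 8 of the 16 alternatives and lost it without E16.5 replicate 2. Its E14.5 readings, -2.31 and -2.02, lay within the range of the E15.5 ones.

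The 3 named fallers below 2-fold had differences of -0.98, -0.97 and -0.90. Z00028781-1 went from 1.98 and 1.96 to 1.12 and 0.86 (limma adjusted p 0.00483). Z00016667-1 and Z00023175-1 had limma adjusted p of 0.0398 and 0.0298, and each kept its call in 8 of the 16 alternatives. Z00016667-1 no longer passed without E15.5 replicate 1, nor Z00023175-1 without E15.5 replicate 2, nor either without an E16.5 array.

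Most other apparent falls of 2-fold rested on E15.5 arrays that disagreed. On the mean, 21 probes were at least 2-fold lower at E16.5, and 16 of them did not pass the test. In 15 of the 16 the E15.5 arrays differed over 2-fold, with replicate 1 the higher in 13. Z00035596-1 read 4.06 on E15.5 replicate 1 and between -0.43 and -0.02 on the other 5 wild-type arrays (limma adjusted p 0.184). Z00059970-1 read 3.93 on that array and between -0.18 and 0.07 on the others, and Z00029018-1 read 3.86 against 0.25 to 0.44. Of these 3 high readings none was seen on the other E15.5 wild-type array, nor on the Tabby arrays of the 2 stages, where the 3 probes lay between -0.32 and 0.26. Without replicate 1 the differences shrank to -0.10 and -0.06 and, for Z00029018-1, turned to 0.11. Without replicate 2 they were -4.40, -4.00 and -3.51, and all 3 then passed.

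A further pair varied between arrays regardless of stage. Z00074503-1 read -5.55 and -9.10 on the E15.5 arrays and -9.35 and -9.34 on the E16.5 arrays. Z00009495-1 read -5.03 and -8.42 and then -8.67 and -8.54. In Tabby both were high on replicate 2 of each stage: Z00074503-1 read -8.30 and -5.60 at E15.5, then -9.26 and -6.07 at E16.5, and Z00009495-1 read -7.68 and -5.09 and then -8.57 and -5.49. Neither passed the test (limma adjusted p 0.353 and 0.366).

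The Tabby arrays showed much of the same change. Their values did not enter the wild-type differences by which probes were chosen. All 12 arrays set each probe's error, however, so the calls in the 2 genotypes are not independent. In Tabby 4597 probes were called, 2632 higher (8.56% of those tested) and 1965 lower (6.39%). The number called was 1034 without Tabby E15.5 replicate 2, 2850 without Tabby E16.5 replicate 1 and 2760 without Tabby E16.5 replicate 2. Of the 592 wild-type risers, 589 were higher at E16.5 in Tabby and 510 (86.1%) were called higher. Among all 2919 wild-type higher calls 1928 (66.1%) were called higher in Tabby, which is 73.3% of the Tabby higher calls. Among the 1697 lower calls 917 (54%) were called lower, which is 46.7% of the Tabby lower calls. Of all 4616 calls 1 was called in the opposite direction in Tabby. Both genotypes of a stage shared its slide, so this second set of arrays does not separate stage from slide.

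The median difference of the 592 probes was 1.17 in Tabby against 1.35 in wild type, and 502 (84.8%) had the larger value in wild type. The probes were chosen for a large rise in wild type, and how much of the gap follows from that choice was not tested. No probe passed a limma test of the difference between the genotypes' changes, with 1665 (5.42%) at an unadjusted p under 0.05. The count stayed at 0 without E15.5 wild-type replicate 1 and rose to 732 without replicate 2. It was 6 and 30 without E16.5 wild-type replicates 1 and 2.

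The probe closest to passing was Z00043843-1, one of the probes that rose in both genotypes. In wild type it read -0.10 and -0.15 at E15.5, then 2.31 and 2.25 at E16.5. In Tabby it read -0.18 and -0.15 and then 1.44 and 1.50. The replicates of each group lay within 0.06 of each other, and both E16.5 wild-type arrays were above both Tabby ones. The rise was larger in wild type by 0.78, with a limma adjusted p of 0.0622 for that difference. The first 30 of its 60 bases are given for reference.
Z00043843-1, bases 1 to 30: tacttaatgaaggcagataggctgctcctg

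Among the named probes the change in Tabby ranged from about as large as in wild type to smaller. Z00040994-1 rose by 6.27 in Tabby, from -0.43 and -0.33 to 5.48 and 6.29 (limma adjusted p 3.41e-06). Z00070340-1 rose by 4.45 in Tabby against 4.64 in wild type, and Z00024515-1 by 3.80 against 4.40. Z00059773-1 rose by 2.60 against 5.00 in wild type. Z00047077-1 fell by 3.02 and Z00040042-1 fell by 1.86 in Tabby, against 3.33 and 1.86 in wild type. Z00074752-1, which was lower at E16.5 in wild type, read -3.15 and -2.92 and then -3.03 and -3.00 in Tabby, a difference of 0.02. For none of these did the difference between genotypes pass the limma test (adjusted p 0.439 to 1).

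**Figure D5:**
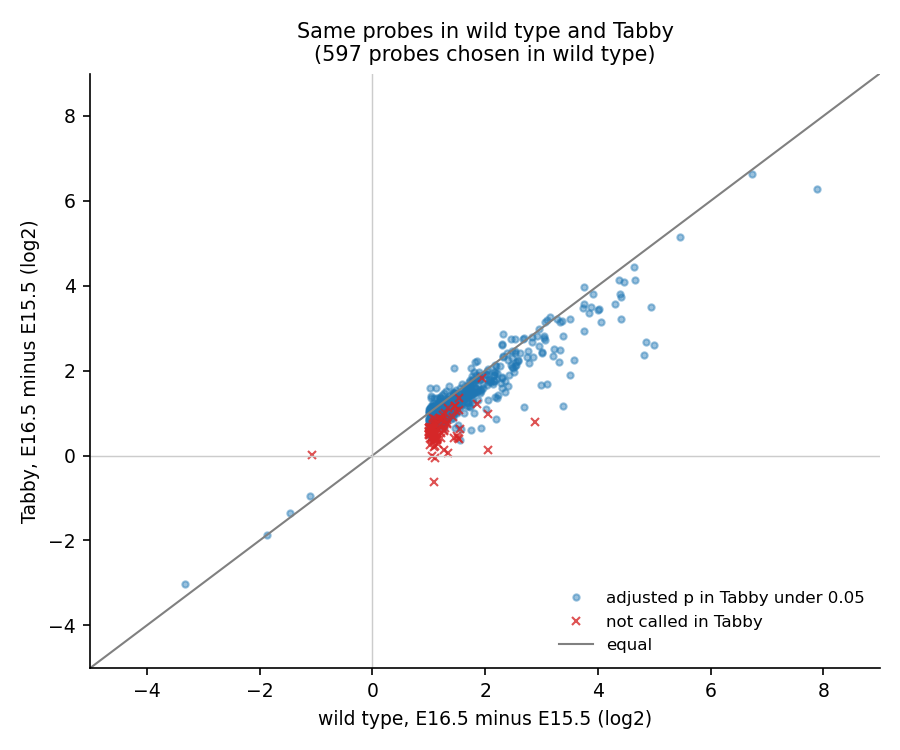
Change from E15.5 to E16.5 in wild type (x axis) and in Tabby (y axis), both on the log2 scale, for the 597 probes called and at least 2-fold different in wild type, with the line of equal change. Of the 592 risers 589 lie above 0 in Tabby and 502 lie below the line of equal change, and crosses mark probes not called in Tabby.

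A small number of probes could be tied to a gene by sequence. Each probe was matched to the RefSeq windows around gene starts of the build GRCm38.p6, which run from 250 bases before the start to 50 after it, on the strand of the gene. Of the 42006 probes, 157 matched the window of 1 gene over at least 25 bases. Bases of a probe beyond the window were not compared, so the gene names rest on the matched part alone. Of these, 84 were tested and 8 (9.52%) called, 7 higher and 1 lower, against 15% of all tested probes. These matches were made after values had been seen, and they cover only transcripts that a probe reads at the 5′ end.

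The called genes were led by Gm36608, a long non-coding RNA whose start window is chr19:3708119-3708418 on the minus strand. Its probe Z00067181-1 read -0.02 and -0.05 at E15.5, then 2.30 and 1.96 at E16.5, a difference of 2.16 ± 0.113 with a limma adjusted p of 1.53e-05. Eyelid signal passed the background flag on only 3 of the 4 arrays, and the difference lay between 1.85 and 4.25 over the alternatives. Pitpnm2, which encodes a membrane-associated phosphatidylinositol transfer protein, has the window chr5:124249711-124250010 on the minus strand. Its probe Z00066495-1 went from 0.17 and 0.36 to 1.84 and 1.59, a difference of 1.45 ± 0.154 (limma adjusted p 0.000795). In both genes the replicates lay far closer to each other than the stages did.

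Arl6, a small GTPase of the cilium whose mutation causes Bardet-Biedl syndrome, has the window chr16:59639290-59639589 on the minus strand. Its probe Z00065658-1 read 0.01 and 0.27 at E15.5, then 1.39 and 1.27 at E16.5, a difference of 1.19 ± 0.159 (limma adjusted p 0.00246). Abhd12b, of the alpha/beta hydrolase fold family, has the window chr12:70153881-70154180 on the plus strand. Its probe Z00059897-1 was among the 56 that came up from background, at -0.02 and -0.03 and then 1.19 and 0.89 (limma adjusted p 0.000776). In the eyelid channel it was at least 1.95-fold higher. In Tabby the probes of these 4 genes rose by 1.90, 1.44, 1.04 and 0.60, each called (limma adjusted p 5.58e-05 to 0.0105).

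The other 4 changes were under 1.3-fold. Cope, a subunit of the coatomer of Golgi vesicles, was higher by 0.32, Toe1, a nuclear 3′ exonuclease, by 0.29 and Leng1 by 0.26, with limma adjusted p of 0.0149, 0.0426 and 0.0245. Gm3194 was lower by 0.36, from 0.12 and 0.25 to -0.09 and -0.26 (limma adjusted p 0.0125). All 3 small rises lost their call without E15.5 replicate 1 and without E16.5 replicate 1. Toe1 also lost it without E15.5 replicate 2, Leng1 without E16.5 replicate 2, and so did Gm3194 without E16.5 replicate 2.

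The placed probes reached 5 of the 551 genes in the gene lists, of which 3 were tested and none called. By limma with Benjamini-Hochberg adjustment, Crygs, a crystallin of the lens, had a difference of 0.11 (adjusted p 0.351), Rpl10a, a ribosomal protein, by 0.27 (adjusted p 0.403) and Madcam1, an adhesion molecule, by -0.04 (adjusted p 0.725). The probes of Retn and Lim2 were not well above background often enough to be tested.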

How the data were processed

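Eyelid RNA (Cy3) and a common reference (Cy5) were compared on 2-colour arrays; no dyes were swapped. Per the file headers, the deposited scanner files were written by Agilent Feature Extraction 9.5.1.1 and give the intensity of every spot in both channels. Processed signals (background-subtracted and dye-normalised), background flags and the log10 of red over green are in the same files, per their headers. The authors' value table, deposited in log10 units, has a normalisation not given in the sources used here. Its columns matched (r = 1) the log10 green processed signal less the departure of the red one from the probe's mean over arrays, so its direction is that of eyelid RNA. Column medians were 2.33 to 2.35.

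Intensities were corrected with limma 3.58.1 in R 4.3.3 (normexp, offset 50) and normalised by loess within each array, with the 1417 control spots at weight 0 and then left out with flagged spots. The ratio's sign was turned to eyelid over reference. Group means were fitted to all 12 arrays (6 residual degrees of freedom) and tested 2-sided with eBayes, with Benjamini-Hochberg adjustment over the tested probes, of which 1 had no value in Tabby. Simulated data served to test the fit. Probes with an adjusted p under 0.05 are termed called.

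The labels' treatment text is about footpad skin of other ages; groups follow the title, source and tissue labels, which give eyelids. The members and lists were chosen with earlier results of these data known. The files pair probes with no gene, and placement by sequence reached 5 of the 551 listed genes, so the gene lists were not counted and probes were named by the rule's fallback. That rule takes, in each direction, the 8 largest differences among called probes whose stages do not overlap and which are well above background on all 4 arrays. It adds the 5 largest lower bounds, ranked with the eyelid channel scaled together with the reference. The largest falls that did not pass and the smallest interaction p were added after values were seen. Alternatives were another background correction, normalisation, filter, set of arrays, array weights and a replicate block.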

Additional observations from a re-analysis of the deposited data

How the results depend on the processing

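Called probes numbered 4616 with all arrays and 816 with median centring, 305 with only the 4 arrays of the 2 groups, 2751 with only the 6 wild-type arrays and 2439 with array weights. Without each array in turn they numbered 2128 to 6421. Calls of 2-fold or more numbered 597, against 219 with only the 4 arrays, and 452 to 923 without each array. The other settings kept these counts within 1.5 times.

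The share of calls that were higher was 63.2%. It was 42.8% with Feature Extraction's ratio, 53.3% with processed signals, 96.7% with median centring, 41.2% with the eyelid channel alone, 57.4% with a normexp offset of 0, 42.8% with the authors' values, 66.1% without a filter on dim probes, 97% with only the 4 arrays, 69.8% with only the 6 wild-type arrays and 76.6% with array weights. Without each array it was 60.8% to 73.4%. The cause of these shifts was not tested, beyond the fewer samples in the smaller fits.

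Tabby calls numbered 4597, against 480 with median centring and 6964 with the eyelid channel alone, and 1034 to 5377 without each array. The difference between genotypes gave 0 calls, 1 with the eyelid channel alone, and 0 to 732 without each array. Leaving out Tabby arrays was added after seeing the data.

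With the replicate number as a block 4488 probes were called (592 at 2-fold or more) and 63.4% of them were higher. Differences between replicates 1 and 2 correlated at -0.07 between the 2 stages, so the samples share only a number. Among the named probes, Z00016667-1 and the Toe1 probe Z00075269-1 lost their call under the block. Z00029018-1, at -1.70 with all arrays, ranged from -3.51 to 0.11 without each array and turned to a rise only without E15.5 replicate 1. Counts of the fixed gene lists were not run.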
